A study of Mus musculus with 6 samples.

Results

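The 48 genes described here encode ligands, receptors, antagonists and direct targets of TGF-beta and BMP signalling, 2 branches of one family of secreted growth factors. They were chosen by name and not by a cut on measured values, but with earlier results of these data known. All 48 were found among the 49315 genes of the count table. The table holds 6 RNA-seq libraries from wild type mouse tail-tip skin cells, 2 for each of 3 groups. The fibroblast group (day 0) was given what the labels call negative lentiviral vectors. The early group (day 7) was given vectors for CRISPR activation, or CRISPRa. The late group (day 22) was given CRISPRa vectors followed by colony isolation, and the labels name these cells CRISPR-induced cardiac progenitors. Vectors and day differ together between fibroblasts and the other groups, and day and colony isolation between early and late cells. Their parts in any difference cannot be told apart. CRISPRa recruits transcriptional activators to a gene's own promoter through a Cas9 that does not cut. The labels name the SAM version for every sample, fibroblasts included, and neither the genes targeted nor the ages of the mice nor the number of colonies pooled is stated there. Early replicate 2 alone is described as partially reprogrammed.

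Ligands of this family are secreted dimers that bring type I and type II receptor kinases together at the cell surface. TGF-betas and activins signal mainly through Smad2 and Smad3, and BMPs through Smad1, Smad5 and Smad9. Some, though not all, latent TGF-beta binding proteins hold TGF-beta in the matrix in an inactive form. Secreted antagonists such as Noggin and Gremlin bind BMPs before they reach a receptor. In skin fibroblasts TGF-beta is known for matrix production and the contractile myofibroblast state, and in the embryo BMPs are known to help induce the heart field.

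Levels are given as CPM, counts scaled to the size of each library after TMM adjustment, and levels of different genes are compared only as CPM per kb of exons. Total counts ranged from 20172874 to 40122999 per library, and 3 counts, the lowest level read as signal, were worth 0.0842 to 0.142 CPM. The 48 genes together took between 0.303% and 0.722% of counts. In a mixed culture, fewer cells of a type and less RNA per cell cannot be told apart. The 7 fibroblast markers summed to between 1934 and 8324 CPM, the highest in early replicate 2, and most of each sum came from the collagens Col1a1 and Col1a2. In early replicate 1, Lum had 0 counts, and Dpt, Dcn, Thy1 and Pdgfra were at 0.668, 3.21, 12.4 and 38.2 CPM, all below both fibroblast libraries. Thy1, Pdgfra and Dpt were also below both fibroblast libraries in late cells. Their late values were 35.4 and 10.5, 110 and 56.0, and 10.6 and 75.6 CPM, while Dcn and Lum overlapped fibroblasts. Macrophage and leukocyte markers (6 of 6 detected in both fibroblast libraries) summed to 234 and 1004 CPM in fibroblasts, 4.23 and 10.7 in early libraries and 4.04 and 98.9 in late ones. Cardiomyocyte markers (6 genes) summed to 43678 CPM in late replicate 2 and to between 13.3 and 111 CPM elsewhere. In that library endothelial markers summed to 648 CPM and erythroid markers to 1004 CPM, against at most 23.1 and 2.74 CPM in the other 5. Mitochondrial genes took 10.3% of its counts, and between 1.48% and 2.16% in the others. Epithelial markers summed to 266 and 82.4 CPM in late cells and to at most 2.49 CPM elsewhere, mostly from Krt8 and Krt18, while the keratinocyte markers Krt5 and Krt14 were at most 0.459 CPM in any library. Smooth muscle and pericyte markers (6 genes) summed to 779 and 3206 CPM in fibroblasts. They summed to 281 and 482 CPM in early libraries and to 1050 and 1287 CPM in late ones. That list includes Acta2 and Tagln, read below among genes known to respond to TGF-beta. Its member Rgs5 was at 2.08 and 2.38 CPM in fibroblasts and between 115 and 416 CPM in the others. Since macrophage markers were highest in fibroblasts, they moved with every gene below that was higher there. Their part in those results was not tested. Of the 7 fibroblast markers, only Thy1 was also highest in both fibroblast libraries, and its part was likewise not tested.

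Of the 48 genes, 46 passed the filter on low counts and were tested, and the exceptions were Bmp10 and Nodal. Between early cells and fibroblasts, 2 of 46 were called by edgeR at an adjusted p under 0.05, 1 higher and 1 lower, against 1.53% of all 16688 genes tested. Between late cells and fibroblasts it was again 2 of 46, both lower, against 1.42% of all genes. Between late and early cells 0 of 46 were called, against 0% of all genes. At an unadjusted p under 0.05 the counts were 17, 22 and 13 of 46, where 29.8%, 32.5% and 10.2% of all genes passed. DESeq2, a different count model run as an alternative, called 17, 20 and 6 of 46, where it called 25.2%, 28.1% and 5.72% of all genes. Of genes that edgeR called in neither comparison with fibroblasts, DESeq2 called Bmp4, Acvr1b and Ltbp4 as higher in both. It called Tgfb3, Inhbb, Acvr2a, Nog, Chrdl1, Fstl3 and Id4 as lower in both. The 2 late comparisons and the early one share libraries and are not independent of each other.

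In late cells more of these genes lay below than above the fibroblast libraries. In 22 of 46 tested genes (47.8%) both late libraries lay below both fibroblast libraries, with 32.9% of all genes. In 11 (23.9%) both lay above, with 35.7% of all genes. The median log2 fold change of the 46 was -0.54 in late cells, with 0.11 over all genes. In early cells 19 (41.3%) lay below both fibroblast libraries and 14 (30.4%) above, where all genes gave 34.4% and 32.3%. The early fold changes were split evenly, 23 above 0 and 23 below, with a median of 0.06 beside 0.00 over all genes. Late cells lay below early cells in 17 (37%, with 17.6% of all genes) and above in 8 (17.4%, with 16.1%). With 2 libraries against 2, an exact permutation test of a single gene cannot go below p = 0.333, so these counts carry no test of their own.

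**Figure D1:**
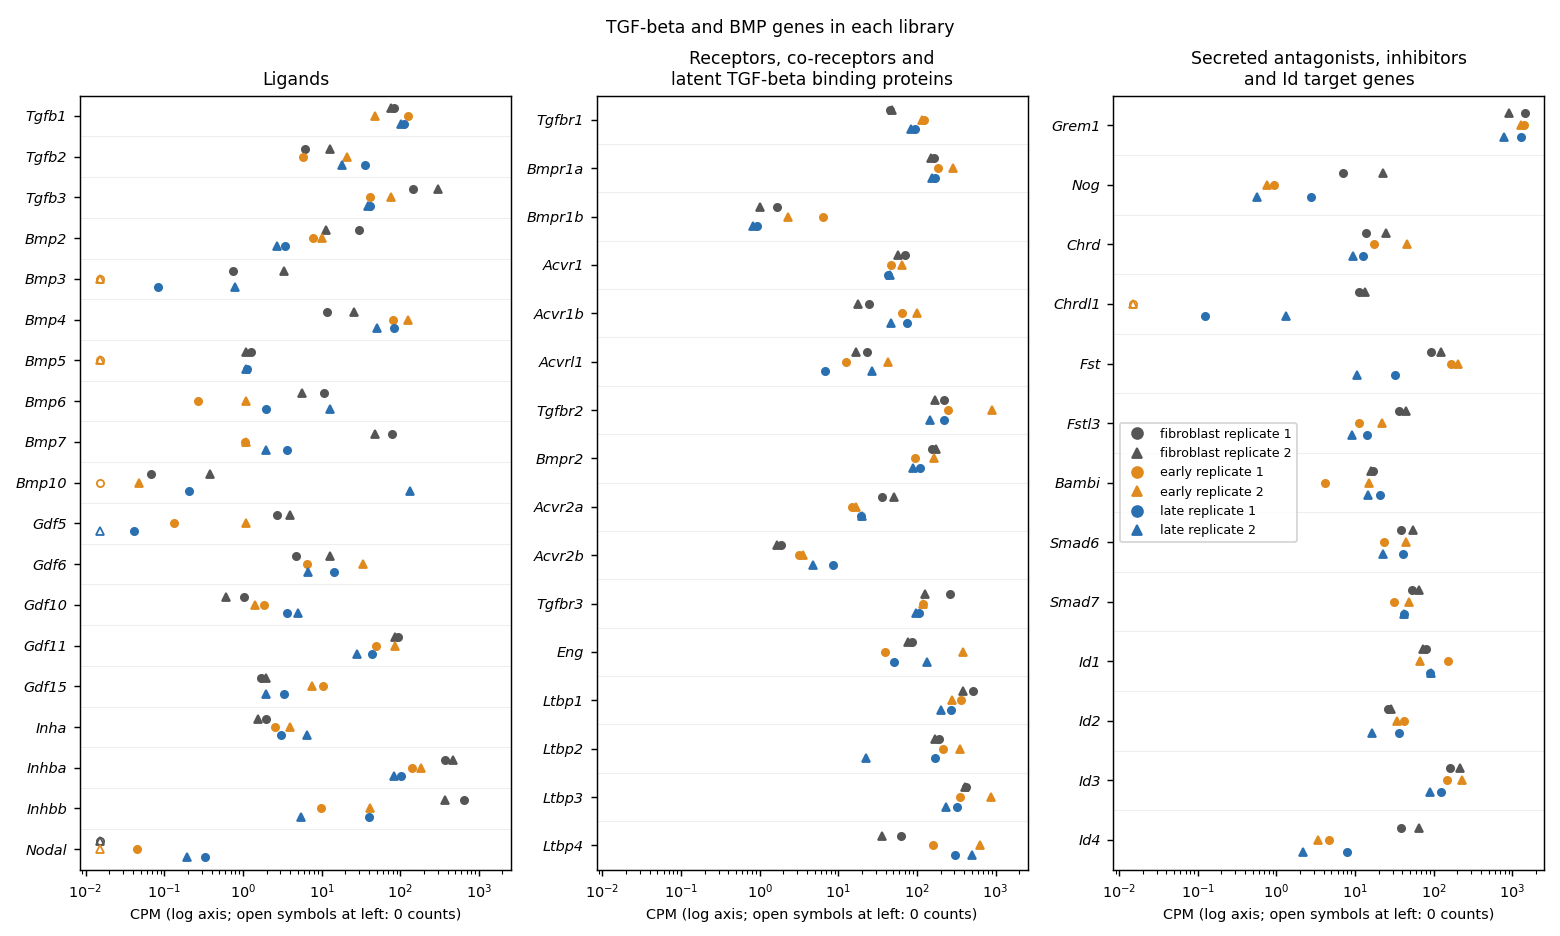
CPM of the 48 genes on a log axis, by library: grey for fibroblast, orange for early and blue for late, circles for replicate 1 and triangles for replicate 2, with 0 counts as open symbols at the left edge. Bmp7, Inhba, Inhbb and Id4 lie to the right in both grey libraries, and Bmp4, Acvr1b and Ltbp4 lie to the left in them.

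Bmp7, a BMP ligand of kidney, eye and skin development, fell in both comparisons with fibroblasts. It lies on chromosome 2 (172868012 to 172940321, GRCm38). Bmp7 was at 79.8 and 48.2 CPM in fibroblasts, 1.07 and 1.09 CPM in early cells and 3.58 and 1.94 CPM in late cells. Fibroblasts were thus far above all 4 CRISPRa libraries, and the late libraries lay above the early ones. The log2 fold change was -5.89 ± 0.51 (SE) in early cells (edgeR adjusted p = 0.0235) and -4.54 ± 0.47 in late cells (edgeR adjusted p = 0.0364). Between late and early cells it was 1.35 ± 0.44, which did not pass (edgeR adjusted p = 0.430).

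Bmp4, a ligand of mesoderm and heart field induction, differed from fibroblasts in the opposite direction. Bmp4, located on chromosome 14 from 46383520 to 46390669, had 11.7 and 25.7 CPM in fibroblasts, 80.8 and 127 CPM in early cells and 84.6 and 50.8 CPM in late cells. All 4 CRISPRa libraries were above both fibroblast libraries without passing the test by edgeR (log2 fold change 2.48 ± 0.51, adjusted p = 0.0692 in early cells and 1.86 ± 0.50, adjusted p = 0.0866 in late cells). DESeq2 called both (adjusted p = 0.000196 and 0.00684). Bmp2, a close relative of Bmp4 with roles in heart cushion and bone formation, was at 30.1 and 11.3 CPM in fibroblasts, 7.79 and 10.03 CPM in early and 3.42 and 2.72 CPM in late cells. Its groups did not overlap and stepped down from fibroblast to early to late, with a log2 fold change of -2.75 ± 0.58 in late cells (edgeR adjusted p = 0.0661).

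On the scale per kb of exons, the mix of BMP and GDF ligands thus was not the same in the 3 groups, while their summed level overlapped between groups. The sum over 12 genes was 63.1 and 56.8 in fibroblasts, 58.5 and 95.8 in early and 57.5 and 67.9 CPM per kb in late libraries. Bmp7 made up 31.5% and 21.1% of that sum in fibroblasts and between 0.283% and 1.55% in the other 4 libraries. Bmp4 made up 8.23% and 20.1% in fibroblasts, 61.4% and 59.2% in early cells and 65.4% and 33.3% in late cells. Gdf11, a ligand that patterns the posterior body axis, made up 36.1% and 37.7% in fibroblasts and between 10.2% and 22.3% in the others. Its CPM was 92.6 and 87.1 in fibroblasts, 49.7 and 86.9 in early and 43.4 and 28.1 in late cells, so late libraries were lowest (log2 fold change -1.33 ± 0.36 against fibroblasts, edgeR adjusted p = 0.0870).

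Bmp10, a ligand made by atrial heart muscle cells, was nearly confined to late replicate 2 among these 6 libraries. Bmp10, located on chromosome 6 from 87428994 to 87437677, had 133 CPM there, 0.208 CPM in the other late library, 0.0671 and 0.382 CPM in fibroblasts, against 0 and 0.0473 CPM in early cells. The same library held nearly all of the cardiomyocyte marker reads, and Bmp10 made up 43.6% of its BMP and GDF ligand signal per kb. It did not pass the filter and has no test.

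Other BMP and GDF ligands were low. Bmp5 and Bmp3 had 0 counts in both early libraries. Bmp5 was at 1.28 and 1.09 CPM in fibroblasts, against 1.13 and 1.10 CPM in late cells, so fibroblasts were at least 17.1-fold higher than early cells against 3 counts over the early group (edgeR adjusted p = 0.0504). Late cells were at least 16.1-fold higher than early cells on the same floor (edgeR adjusted p = 0.289). Bmp3, an atypical member that opposes BMP signalling, was at 0.739 and 3.29 CPM in fibroblasts, against 0.0834 and 0.786 CPM in late cells, at least 30.5-fold higher in fibroblasts than in early cells (edgeR adjusted p = 0.101). Gdf5, a ligand of joint formation, was at 2.69 and 3.97 CPM in fibroblasts, 0.134 and 1.09 CPM in early cells and had 1 count over both late libraries. The ratio of fibroblast to late cells was 201, with an exact 95% counting interval of 35.7 to 7972 that covers counting error only (edgeR adjusted p = 0.0672).

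Bmp6, a ligand with roles in iron control, was at 10.7 and 5.59 CPM in fibroblasts, 0.267 and 1.09 CPM in early cells, and 1.96 and 12.7 CPM in late cells, where late replicate 2 exceeded both fibroblast libraries. Gdf15, a stress-induced ligand, was at 1.71 and 1.94 CPM in fibroblasts, 10.4 and 7.62 CPM in early cells and 3.33 and 1.99 CPM in late cells. Early cells were highest without passing by edgeR (log2 fold change 2.30 ± 0.52, adjusted p = 0.0748 against fibroblasts). Gdf10 rose in no comparison by edgeR, though its libraries stepped up from 1.04 and 0.618 CPM in fibroblasts through 1.87 and 1.42 to 3.58 and 4.999 CPM in late cells (adjusted p = 0.0781 against fibroblasts). Gdf6 ranged from 4.70 to 33.3 CPM with overlapping groups.

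Inhba and Inhbb encode the chains of activin A and activin B, ligands that act through Smad2 and Smad3, and both were lower in every CRISPRa library. Inhba, located on chromosome 13 from 16011851 to 16031621, had 373 and 470 CPM in fibroblasts, 140 and 184 CPM in early cells and 103 and 84.4 CPM in late cells. The 3 groups did not overlap. The log2 fold change was -2.17 ± 0.27 in late cells, a fall past the threshold (edgeR adjusted p = 0.0468), and -1.38 ± 0.27 in early cells, which did not pass (edgeR adjusted p = 0.0642). Inhbb, located on chromosome 1 from 119415465 to 119422248, had 652 and 371 CPM in fibroblasts, 9.89 and 41.9 CPM in early cells and 40.1 and 5.53 CPM in late cells. Its fold change was larger than that of Inhba, but its libraries differed over 4-fold within the early and the late group, and it did not pass (log2 fold change -4.30 ± 1.22, edgeR adjusted p = 0.0960 in early cells, and -4.49 ± 1.23, edgeR adjusted p = 0.0873 in late cells).

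Inha, whose product pairs with the activin chains to give inhibins that block activin, was at 1.98 and 1.56 CPM in fibroblasts, 2.54 and 4.02 CPM in early cells and 3.04 and 6.52 CPM in late cells (edgeR adjusted p = 0.377 and 0.175). Nodal, the ligand of embryonic mesendoderm, had 0 counts in both fibroblast libraries and at most 0.333 CPM in any library. Per kb of exons, the activin, inhibin and Nodal genes summed to 213 and 162 CPM per kb in fibroblasts and to between 19.0 and 41.4 CPM per kb in the other 4 libraries. Inhbb made up 72.0% and 53.9% of that sum in fibroblasts and between 6.83% and 33.9% in the others, where Inhba was the largest part.

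**Figure D2:**
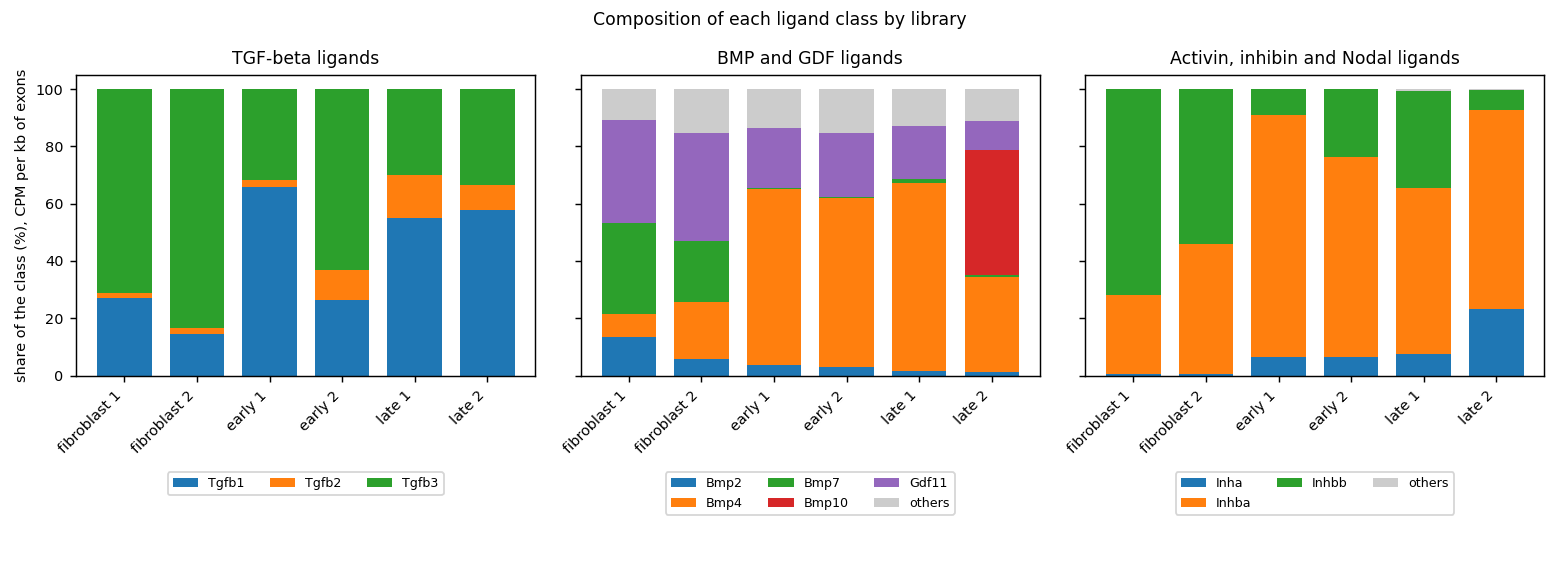
Stacked bars of the share of each ligand in its class, in percent of summed CPM per kb of exons, for each of the 6 libraries. Tgfb3 is the largest part of the TGF-beta bar in both fibroblast libraries (71.1% and 83.5%), Bmp4 of the BMP and GDF bar in the early libraries and late replicate 1, and Bmp10 (43.6%) only in late replicate 2.

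Among the 3 TGF-beta ligands, Tgfb3 was lower in all CRISPRa libraries, and Tgfb1 showed a smaller difference. Tgfb3, located on chromosome 12 from 86056745 to 86079041, had 145 and 299 CPM in fibroblasts, 41.1 and 76.4 CPM in early cells and 41.1 and 39.4 CPM in late cells. Both fibroblast libraries were above the other 4, without a call by edgeR (log2 fold change -1.92 ± 0.47, adjusted p = 0.0795 in early cells and -2.46 ± 0.48, adjusted p = 0.0641 in late cells). Tgfb1, the main isoform of wound repair, was at 82.5 and 76.5 CPM in fibroblasts, 127 and 47.6 CPM in early cells and 112 and 101 CPM in late cells (log2 fold change 0.43 ± 0.46 in late cells, edgeR adjusted p = 0.545). Tgfb2, the isoform most tied to heart cushion formation, was at 6.21 and 12.9 CPM in fibroblasts, 5.88 and 21.1 CPM in early cells and 35.2 and 18.1 CPM in late cells. Its late libraries were above both fibroblast libraries (log2 fold change 1.48 ± 0.75, edgeR adjusted p = 0.227).

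Per kb of exons, Tgfb3 was the most abundant isoform in both fibroblast libraries and in early replicate 2 (63.4% of the 3). In early replicate 1 and both late libraries Tgfb1 was the largest, at 65.8%, 55.0% and 57.7%. The summed level was 60.3 and 106 CPM per kb in fibroblasts and between 34.9 and 40.5 CPM per kb in the other 4 libraries.

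Type I receptors carry the signal into the cell. Tgfbr1, the type I receptor for TGF-beta (chromosome 4, 47353222 to 47414931), had 44.8 and 48.1 CPM in fibroblasts, 123 and 116 CPM in early cells and 93.5 and 82.9 CPM in late cells. The groups did not overlap, with early cells highest. Tgfbr1 rose in early cells (log2 fold change 1.36 ± 0.19, edgeR adjusted p = 0.0461) and had a log2 fold change of 0.93 ± 0.19 in late cells that did not pass (edgeR adjusted p = 0.0646). Acvr1b, the type I receptor for activin and Nodal, was at 24.4 and 17.7 CPM in fibroblasts, 64.4 and 99.9 CPM in early cells and 75.4 and 47.2 CPM in late cells. Its 4 CRISPRa libraries were above fibroblasts without a call by edgeR (log2 fold change 1.96 ± 0.37, adjusted p = 0.0642 in early cells and 1.54 ± 0.37, adjusted p = 0.0768 in late cells).

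The calls of Bmp7, Inhba and Tgfbr1 were each lost when certain single libraries were left out. Without fibroblast replicate 1, fibroblast replicate 2 or early replicate 1, the edgeR adjusted p of Bmp7 in early cells was 0.198, 0.168 or 0.102, and that of Tgfbr1 was 0.278, 0.308 or 0.134 (0.0656 without early replicate 2). In late cells, without fibroblast replicate 1, fibroblast replicate 2 or late replicate 2, it was 0.266, 0.196 or 0.0736 for Bmp7 and 0.266, 0.303 or 0.0897 for Inhba. Each of these fits keeps a single library in one group, which is taken to vary like the others, and all kept the direction. DESeq2 called the 3 genes in both comparisons, with adjusted p of at most 9.95e-05.

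Sequence around the start site is shown for the 2 called genes with an entry in RefSeq's table of promoters (GRCm38.p6), since they moved in opposite directions. Each run covers 250 bases before to 50 bases after the start, 5′ to 3′ on the gene's strand, in lower case. Capitals mark matches on either strand to 7 short motifs, none of which is part of another. The AP-1 motif was searched for as TGANTCA, which 7.81% of the 32851 promoters of that table held. Smad motifs were searched for as the palindrome GTCTAGAC, held by 0.213% of promoters, and as the shorter box CAGACA, held by 6913 promoters. The core promoter motifs were the GC box GGGCGG, held by 35.7% of promoters, and the TATA motif TATAAA, held by 13.6%. Sites for GATA factors were searched for as AGATAA, held by 11.2% of promoters. The other spelling of that site, TGATAA, was held by 9.05%. Tgfbr1 is at chr4:47352972-47353271 on the plus strand, and Inhba at chr13:16011601-16011900 on the plus strand.
Tgfbr1: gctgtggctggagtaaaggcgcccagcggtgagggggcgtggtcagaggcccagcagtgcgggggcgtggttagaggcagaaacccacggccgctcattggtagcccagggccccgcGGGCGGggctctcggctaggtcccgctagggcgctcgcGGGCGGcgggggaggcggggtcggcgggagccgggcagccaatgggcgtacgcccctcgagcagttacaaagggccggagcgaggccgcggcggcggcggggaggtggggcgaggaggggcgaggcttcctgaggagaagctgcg
Inhba: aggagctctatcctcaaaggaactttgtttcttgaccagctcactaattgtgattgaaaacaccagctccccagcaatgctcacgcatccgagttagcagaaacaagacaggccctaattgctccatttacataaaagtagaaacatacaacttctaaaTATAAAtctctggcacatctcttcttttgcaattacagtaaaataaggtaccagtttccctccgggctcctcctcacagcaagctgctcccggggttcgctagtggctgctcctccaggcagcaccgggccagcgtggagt
The Tgfbr1 window is 74.7% G and C with 34 CpG, and its capitals are GC boxes that begin 133 and 95 bases before the start. The Inhba window is 47.7% G and C with 7 CpG. Its capitals are a match to the TATA motif that begins 91 bases before the start. Over all promoters of the table the medians were 52.7% and 7 CpG. Among the 34 of 48 genes with an entry, the GC box was found in 22 and the TATA motif in 5. The AP-1 motif was found in 1, the Smad palindrome in 1 (Smad6), the Smad box in 6 and the GATA spellings in 2 and 0. These matches describe letters in the window and are not shown to be bound in these cells.

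The BMP type I receptors gave no call by edgeR in any comparison. Bmpr1a, the main BMP type I receptor of mesenchyme, was at 164 and 151 CPM in fibroblasts, 188 and 289 CPM in early cells and 169 and 155 CPM in late cells (edgeR adjusted p = 0.207 and 0.919). Per kb of exons it was the most abundant of the 6 type I receptors in each library, at between 38.5% and 46.6%. Acvr1, a BMP type I receptor of the heart cushions, was between 42.6 and 71.4 CPM. Its late libraries were lowest (log2 fold change -0.54 ± 0.25 against fibroblasts, edgeR adjusted p = 0.198). Bmpr1b, a receptor of cartilage, was low, at 1.65 and 1.0001 CPM in fibroblasts, 6.32 and 2.32 CPM in early cells and 0.917 and 0.814 CPM in late cells. Its early libraries were highest and its late ones lowest, with log2 fold changes of 1.71 ± 0.69 in early cells against fibroblasts (edgeR adjusted p = 0.173) and -2.32 ± 0.71 in late against early cells (edgeR adjusted p = 0.420), of which DESeq2 called the second (adjusted p = 0.0439). Acvrl1, the endothelial receptor ALK1, was at 23.3 and 16.6 CPM in fibroblasts, 12.7 and 43.3 CPM in early and 6.79 and 26.6 CPM in late cells, so the replicates of a group differed more than the groups.

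Type II receptors start the phosphorylation. Tgfbr2, which binds TGF-beta, was at 224 and 169 CPM in fibroblasts, 247 and 903 CPM in early cells and 223 and 147 CPM in late cells, and early replicate 2 stood apart (edgeR adjusted p = 0.181 against fibroblasts). Acvr2a, a type II receptor shared by activins and BMPs, was at 35.5 and 50.9 CPM in fibroblasts and between 15.01 and 20.1 CPM in the other 4 libraries (log2 fold change -1.44 ± 0.27, edgeR adjusted p = 0.0621 in early cells and -1.12 ± 0.27, adjusted p = 0.0764 in late cells). Its relative Acvr2b was above fibroblasts in all 4 CRISPRa libraries, at 1.88 and 1.65 CPM in fibroblasts, 3.16 and 3.60 CPM in early and 8.67 and 4.72 CPM in late cells (edgeR adjusted p = 0.0889 in late cells). Bmpr2, the BMP type II receptor, ranged from 88.5 to 175 CPM, with both late libraries below fibroblasts (edgeR adjusted p = 0.186).

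Tgfbr3, or betaglycan, presents ligands to the type II receptor and was at 266 and 127 CPM in fibroblasts and between 96.6 and 120 CPM in the others. Eng, or endoglin, a co-receptor known from endothelium, was at 87.6 and 77.6 CPM in fibroblasts, 39.5 and 387 CPM in early cells and 51.5 and 134 CPM in late cells. Its highest value was in early replicate 2, where the 6 endothelial markers summed to 1.89 CPM, while in late replicate 2 they summed to 648 CPM. Neither co-receptor passed the test in any comparison (edgeR adjusted p from 0.148 to 0.920).

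**Figure D3:**
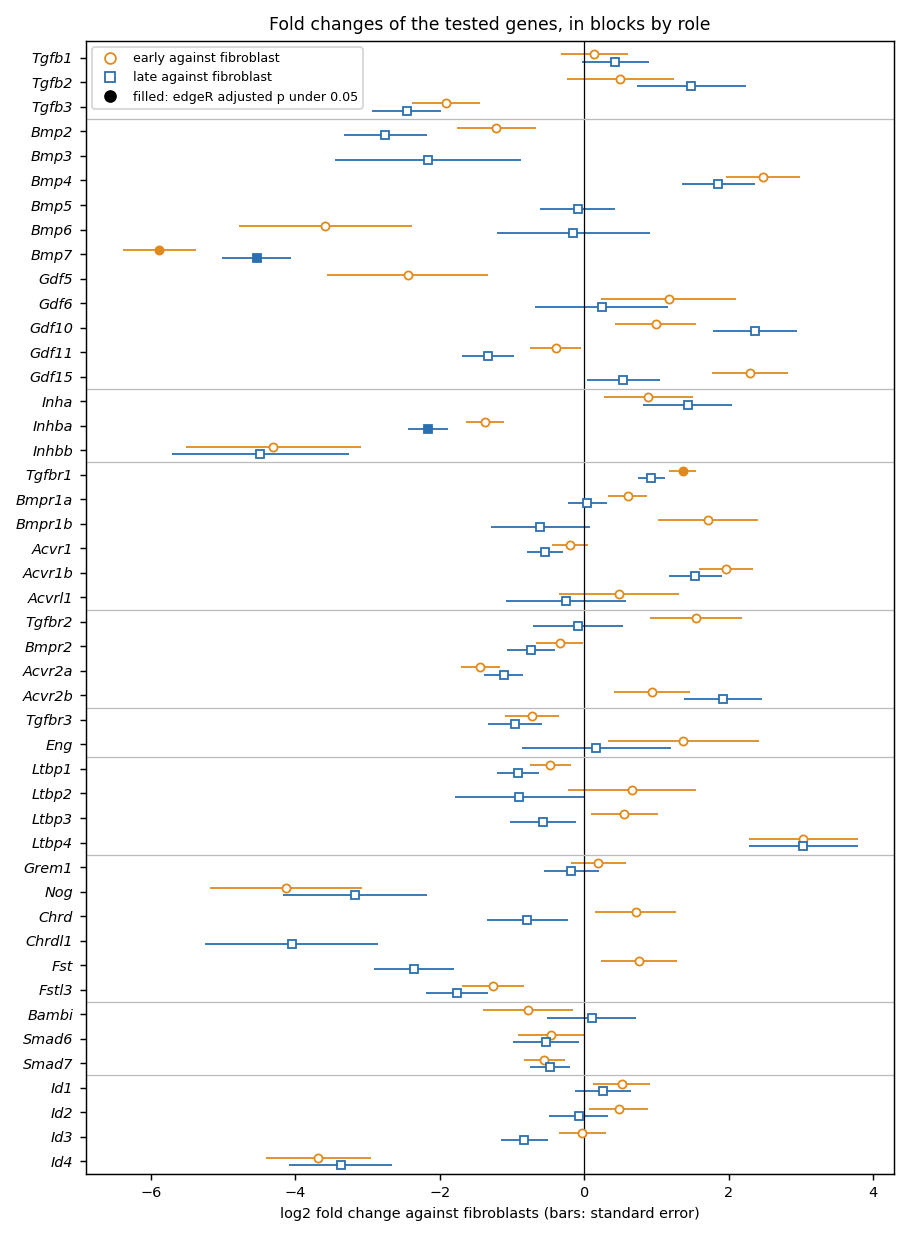
Log2 fold change against fibroblasts with its standard error, for early cells (orange circles) and late cells (blue squares), with filled symbols at an edgeR adjusted p under 0.05 and lines between roles. The fitted values of genes with 3 or fewer counts in a group are not drawn (Bmp3, Bmp5 and Chrdl1 in early cells, Gdf5 in late cells). The 3 called genes are Bmp7 and Inhba to the left of 0 and Tgfbr1 to the right.

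Of the 4 latent TGF-beta binding proteins, Ltbp4 differed most. Ltbp4, known from elastic fibres (chromosome 7, 27305136 to 27337692), had 61.9 and 36.3 CPM in fibroblasts, 160 and 642 CPM in early cells and 306 and 496 CPM in late cells. All 4 CRISPRa libraries were above fibroblasts without a call by edgeR (log2 fold change 3.03 ± 0.76 in both comparisons, adjusted p = 0.0814 in early and 0.0793 in late cells). Its share per kb of exons was 7.49% and 5.23% of these 4 genes in fibroblasts, 19.9% and 37.5% in early cells and 36.6% and 61.5% in late cells. Ltbp1 stepped the other way, from 512 and 382 CPM in fibroblasts through 364 and 283 to 270 and 204 CPM in late cells (edgeR adjusted p = 0.327 and 0.109). Late replicate 2 was lowest for Ltbp2, at 22.5 CPM, with the other 5 libraries between 171 and 356 CPM. Ltbp3 was between 237 and 867 CPM, the highest in early replicate 2.

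Among the 6 secreted antagonists of this set, Grem1 dominated in every library. Grem1, which encodes Gremlin, was at 1442 and 905 CPM in fibroblasts, 1411 and 1275 CPM in early cells and 1280 and 796 CPM in late cells. The groups overlapped throughout (edgeR adjusted p from 0.761 to 0.796). Per kb of exons it made up between 77.1% and 95.9% of the 6 antagonists. Nbl1, an antagonist outside the set, was at 196 and 216 CPM per kb in fibroblasts, against 348 and 218 for Grem1. In the other libraries Nbl1 was between 17.5 and 85.1 CPM per kb, and Grem1 between 192 and 340.

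Fst encodes follistatin, which binds activins, and its levels lay on either side of fibroblasts in the CRISPRa stages. Fst, located on chromosome 13 from 114452290 to 114458951, had 92.3 and 126 CPM in fibroblasts, 164 and 205 CPM in early cells and 31.8 and 10.6 CPM in late cells. Early libraries were above and late libraries below both fibroblast libraries. By edgeR the difference of late from early cells did not pass (log2 fold change -3.12 ± 0.57, adjusted p = 0.350), nor did those from fibroblasts (adjusted p = 0.387 and 0.0758), while DESeq2 called late against early (adjusted p = 3.84e-05). Fstl3, a relative of follistatin, was at 35.7 and 44.0 CPM in fibroblasts and between 9.21 and 21.9 CPM in the other 4 libraries (edgeR adjusted p = 0.127 and 0.0781).

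The BMP antagonists Nog and Chrdl1 were lower in early and late cells than in fibroblasts. Nog, or Noggin, was at 6.98 and 22.8 CPM in fibroblasts, 0.935 and 0.757 CPM in early cells and 2.75 and 0.562 CPM in late cells (log2 fold change -4.13 ± 1.05, edgeR adjusted p = 0.0826 in early cells). Chrdl1, a chordin-like protein, was at 11.3 and 13.2 CPM in fibroblasts, had 0 counts in early cells and was at 0.125 and 1.32 CPM in late cells. Fibroblasts were at least 179-fold above early cells against 3 counts over that group (edgeR adjusted p = 0.0680). Chrd, or Chordin, was between 9.52 and 45.8 CPM, with late libraries below fibroblasts and early ones overlapping them.

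The feedback inhibitors Smad6, Smad7 and Bambi, which are themselves induced by the pathway, gave no call in any comparison by edgeR. Smad7, which blocks TGF-beta and BMP receptors, was at 52.7 and 64.4 CPM in fibroblasts, 31.1 and 48.7 CPM in early cells and 42.0 and 42.2 CPM in late cells (edgeR adjusted p = 0.251 and 0.286). Smad6, which acts mainly on BMP signals, ranged from 22.9 to 54.1 CPM with overlapping groups. Bambi, a decoy receptor, was at 4.19 CPM in early replicate 1 and between 14.5 and 20.8 CPM in the other 5 libraries.

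Of the Id genes, direct BMP targets that restrain differentiation factors, Id4 stood apart from the other three. Id4, located on chromosome 13 from 48261228 to 48266026, had 38.7 and 65.4 CPM in fibroblasts, 4.68 and 3.41 CPM in early cells and 7.92 and 2.16 CPM in late cells. Fibroblasts were above the other 4 libraries without a call by edgeR (log2 fold change -3.69 ± 0.73, adjusted p = 0.0656 in early cells and -3.37 ± 0.71, adjusted p = 0.0667 in late cells). DESeq2 called it in both (adjusted p = 1.07e-05 and 6.13e-05). Id1 was at 79.9 and 73.5 CPM in fibroblasts, 152 and 67.9 CPM in early cells and 90.1 and 93.6 CPM in late cells (edgeR adjusted p = 0.422 and 0.664). Id3 was at 163 and 217 CPM in fibroblasts, 147 and 227 CPM in early cells and 124 and 89.8 CPM in late cells, with both late libraries lowest (edgeR adjusted p = 0.152). Id2 was between 16.5 and 42.5 CPM. Per kb of exons, Id1 and Id3 were the most abundant of the 4 in each library.

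**Figure D4:**
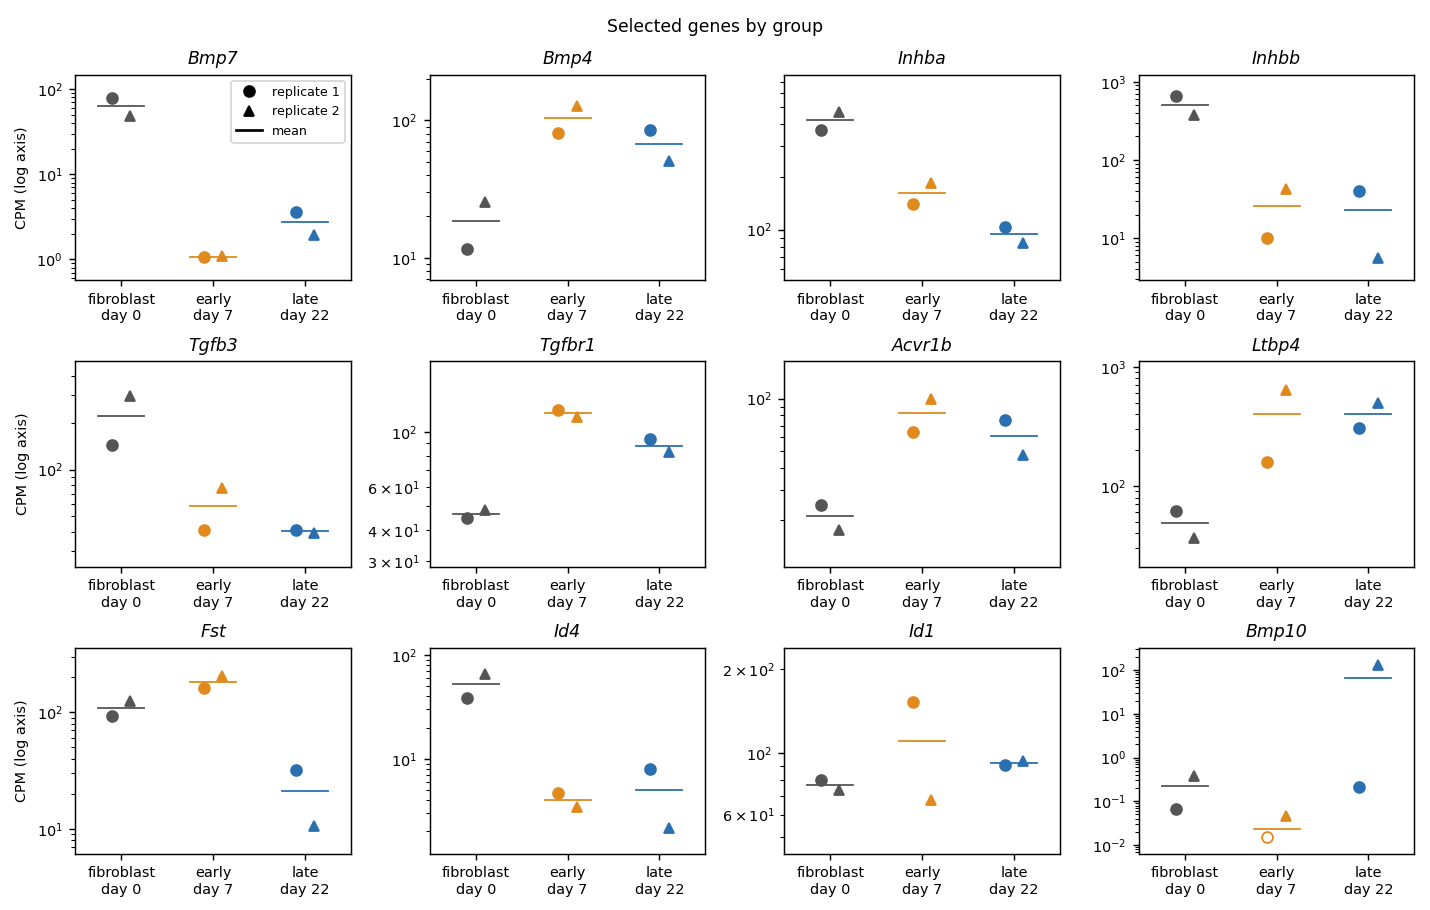
CPM on log axes for 12 genes described in the text, by group and day, with replicate 1 as a circle, replicate 2 as a triangle and the group mean as a line, and an open symbol for 0 counts. Bmp7, Inhbb, Tgfb3 and Id4 are highest in fibroblasts, Bmp4, Tgfbr1, Acvr1b and Ltbp4 are lowest there, and Bmp10 reaches 133 CPM only in late replicate 2.

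The spread between replicates was uneven. Between the early libraries 5 of 46 genes differed over 4-fold (Gdf5, Gdf6, Inhbb, Eng and Ltbp4; 10.9%, with 7.89% of all genes), and between the late libraries 6 did (Bmp3, Bmp6, Inhbb, Ltbp2, Nog and Chrdl1; 13.0%, with 11.7% of all genes). Between fibroblast libraries it was 1, Bmp3 (2.17%, with 2.70% of all genes). In early replicate 2, Tgfbr2, Eng, Ltbp3 and Ltbp4 each had their highest value of the 6 libraries. So did Bmp4, Gdf6, Bmpr1a, Acvr1b, Acvrl1, Ltbp2, Chrd, Fst and Id3. These genes were listed after their values were seen, and the share over all genes was not computed. Fibroblast markers summed to 8324 CPM in that library, against 2731 CPM in early replicate 1, and any link was not tested.

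Other genes of the pathway were read from 7 lists of 101 symbols, 100 of them matched and 86 tested. Over all lists 2 rose and 0 fell in early cells and 3 rose and 1 fell in late cells by edgeR, and 0 changed between late and early cells (35, 39 and 19 at an unadjusted p under 0.05, and 32, 37 and 13 by DESeq2). Over all genes tested, 1.53%, 1.42% and 0% were called by edgeR, 29.8%, 32.5% and 10.2% passed unadjusted and 25.2%, 28.1% and 5.72% were called by DESeq2. In late cells 47 of 86 lay below both fibroblast libraries and 22 above, where 32.9% of all genes lay below and 35.7% above. In early cells 38 lay below and 22 above, where the shares of all genes were 34.4% and 32.3%. None of these genes was called in early cells without fibroblast replicate 1, fibroblast replicate 2 or early replicate 1, nor in late cells without fibroblast replicate 1, fibroblast replicate 2 or late replicate 2.

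Of the modulators outside the cell, 16 were tested. In early cells 6 lay below both fibroblast libraries and 3 above (34.4% and 32.3% of all genes), and in late cells 9 below and 4 above (32.9% and 35.7% of all genes). Sostdc1 had 0 counts in early cells and was at 2.12 and 1.65 CPM in fibroblasts. Nbl1 was at 398 and 439 CPM in fibroblasts and between 35.5 and 173 CPM in the others (edgeR adjusted p = 0.138 and 0.0742). Bmper, a BMP modulator of endothelium, was at 47.0 and 38.9 CPM in fibroblasts, against 75.5 and 148 CPM in early cells (edgeR adjusted p = 0.0848). Bgn, the proteoglycan biglycan, was at between 959 and 6169 CPM with early libraries on both sides of fibroblasts.

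Of 13 genes that store or activate latent TGF-beta, 10 lay below both fibroblast libraries and 2 above in late cells (32.9% and 35.7% of all genes). In early cells 9 lay below and 2 above (34.4% and 32.3% of all genes). Thbs1, thrombospondin and an activator of latent TGF-beta, was at 12186 and 18909 CPM in fibroblasts, 437 and 530 CPM in early cells and 668 and 114 CPM in late cells, without a call by edgeR (log2 fold change -5.01 ± 0.97, adjusted p = 0.0645 and -5.31 ± 0.99, adjusted p = 0.0608). Lrrc32, or GARP, which holds latent TGF-beta at the cell surface, was at 299 and 196 CPM in fibroblasts, against 26.8 and 15.6 CPM in late cells (edgeR adjusted p = 0.0559). The integrin chain Itgav was at 518 and 414 CPM in fibroblasts, against 203 and 154 CPM in late cells (edgeR adjusted p = 0.0608), and Itgb1 at 2063 and 2867 against 969 and 867 CPM (0.0657). The 1 called gene rose: Fbn2, a fibrillin of embryonic microfibrils, was at 0.470 and 1.09 CPM in fibroblasts, 2.81 and 1.61 CPM in early cells and 74.4 and 29.5 CPM in late cells (log2 fold change 6.04 ± 0.78, edgeR adjusted p = 0.0468).

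The Smads and their regulators, 17 of 17 tested, held none of these calls. In early cells 9 lay below both fibroblast libraries and 4 above (34.4% and 32.3% of all genes), and in late cells the counts were again 9 and 4 (32.9% and 35.7% of all genes). Smad1, a BMP Smad, was at 25.6 and 25.5 CPM in fibroblasts, 43.3 and 47.5 CPM in early cells and 35.5 and 33.4 CPM in late cells (edgeR adjusted p = 0.0775 in early cells). Smad9, another BMP Smad, was at 10.8 and 11.4 CPM in fibroblasts, against 4.13 and 2.89 CPM in late cells (edgeR adjusted p = 0.0813). Ski, a repressor of Smad activity, was at 294 and 369 CPM in fibroblasts and between 126 and 226 CPM in the others. Ppm1a, a Smad phosphatase, was at 182 CPM in both fibroblast libraries and between 83.9 and 125 CPM in the others. The 7 tested further receptors and co-receptors also held none of the calls. Cd109, a co-receptor that limits TGF-beta signalling, was at 431 and 293 CPM in fibroblasts, 126 and 63.7 CPM in early and 59.6 and 42.3 CPM in late cells (edgeR adjusted p = 0.0733 and 0.0556). Neo1 was at 178 and 118 CPM in fibroblasts, against 364 and 380 CPM in early cells (edgeR adjusted p = 0.0679). Nrp1 was at 71.0 and 70.9 CPM in fibroblasts and between 91.6 and 151 CPM in the others, and Rgmb at 109 and 40.1 against between 19.3 and 38.7 CPM.

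The 6 tested further ligands held none of the calls either. Gdf7, a BMP ligand of the roof plate, was at 3.96 and 4.03 CPM in fibroblasts, 16.2 and 19.9 CPM in early cells and 2.21 and 1.77 CPM in late cells, so early cells were highest (edgeR adjusted p = 0.0595 against fibroblasts and 0.254 for late against early). Bmp8a was at most 2.69 CPM in fibroblasts and at most 0.542 CPM in the others, and Bmp8b was at most 0.907 CPM. Lefty1, an inhibitor of Nodal, was at 12.5 and 5.56 CPM in fibroblasts and between 0.757 and 7.24 CPM in the others.

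**Figure D5:**
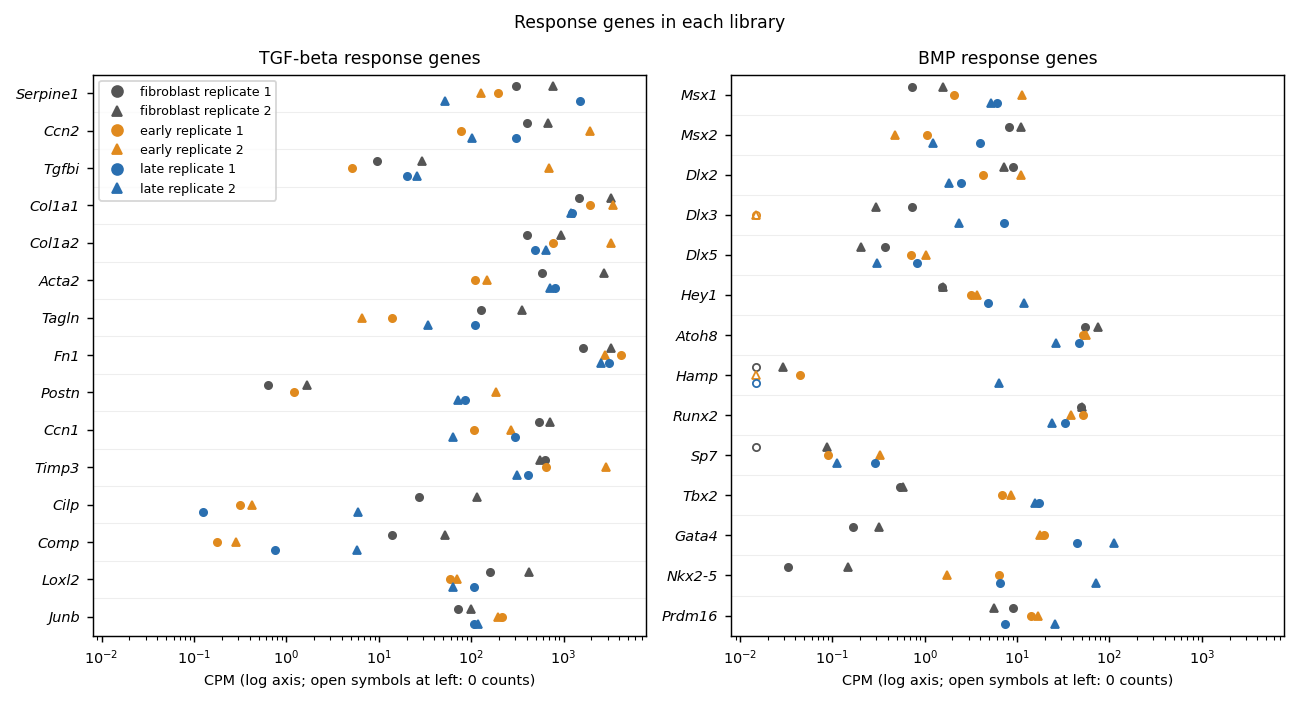
CPM on a log axis of genes known to respond to TGF-beta (left) and to BMP (right), by library, with the colours and symbols of the plot of all 48 genes. Acta2 and Tagln are lowest in the early libraries, Tgfbi and Ccn2 are highest in early replicate 2, and Gata4 and Tbx2 are lowest in fibroblasts.

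Genes known to respond to TGF-beta, 15 of 15 tested, held none of the calls. In early cells 7 lay below both fibroblast libraries and 2 above (34.4% and 32.3% of all genes), and in late cells 8 below and 2 above (32.9% and 35.7% of all genes). Acta2, smooth muscle actin of myofibroblasts, was at 590 and 2714 CPM in fibroblasts, 110 and 150 CPM in early cells and 814 and 717 CPM in late cells (edgeR adjusted p = 0.0707 in early cells). Tagln, a contractile gene, was at 129 and 353 CPM in fibroblasts, 14.0 and 6.63 CPM in early cells and 110 and 34.2 CPM in late cells (edgeR adjusted p = 0.0645 in early cells). Both thus had their lowest values in early cells. Comp, a matrix protein, was at 14.1 and 51.9 CPM in fibroblasts and at most 5.78 CPM in the others. Junb, an AP-1 factor induced early by TGF-beta, was highest in early cells, at 216 and 195 CPM against 72.8 and 99.3 CPM in fibroblasts (edgeR adjusted p = 0.0624). Fn1, fibronectin, overlapped between groups. In early replicate 2 alone, Tgfbi reached 689 CPM and Ccn2 1941 CPM, beside 5.08 and 77.1 CPM in early replicate 1; these 2 genes were picked after their values were seen.

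Of 12 tested genes known to respond to BMP, 2 rose in each comparison with fibroblasts, where 1.53% and 1.42% of all genes were called in either direction. Both calls are among those lost without the single libraries named above. In early cells 7 lay above both fibroblast libraries and 2 below (32.3% and 34.4% of all genes), and in late cells 6 above and 4 below (35.7% and 32.9% of all genes). The 2 that rose were Gata4 and Tbx2, heart development factors that also respond to other inputs. Gata4 was at 0.168 and 0.324 CPM in fibroblasts, 19.8 and 17.8 CPM in early cells and 44.2 and 113 CPM in late cells (edgeR adjusted p = 0.0339 and 0.0311), and the labels do not say whether it was itself a target of the vectors. Tbx2 was at 0.537 and 0.588 CPM in fibroblasts, 6.90 and 8.52 CPM in early and 17.2 and 15.8 CPM in late cells (edgeR adjusted p = 0.0351 and 0.0317). Msx2, a homeobox BMP target, was below fibroblasts in all 4 CRISPRa libraries, at 8.26 and 10.9 CPM in fibroblasts, 1.07 and 0.473 CPM in early and 3.96 and 1.24 CPM in late cells (edgeR adjusted p = 0.0758 in early cells). Nkx2-5, a heart factor, was at 0.0336 and 0.147 CPM in fibroblasts, 6.46 and 1.75 CPM in early and 6.50 and 71.9 CPM in late cells (edgeR adjusted p = 0.102 and 0.0654). As for Gata4, the labels do not say whether Nkx2-5 or Tbx2 was itself a target of the vectors. Atoh8, a BMP target of endothelium and muscle, was at 53.9 and 75.2 CPM in fibroblasts and between 26.2 and 55.5 CPM in the others (edgeR adjusted p = 0.641 and 0.174).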

How the data were processed

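The authors deposited raw counts of reads per Ensembl gene for 6 poly(A)-selected libraries, not normalized. The submitters' processing notes list Trimmomatic 0.36, STAR 2.5.2b, featureCounts, Subread 1.5.2 and GRCm38. Neither the strand setting nor the handling of reads with several positions is given there. Exons of 17 of the 48 genes overlap those of another gene, in all but Tgfbr3 on the opposite strand, so their counts may include its reads. The largest overlaps were in Fstl3 (47.32% of exon bases), Bmp5 (46.66%) and Gdf5 (40.34%), where the overlapping genes were at most 0.237 CPM. Smaller overlaps with higher genes were in Bmp6 (5.74%, with Txndc5) and Acvr2a (7.84%, with Orc4). Txndc5 was between 272 and 623 CPM, with Bmp6 between 0.267 and 12.7 CPM. Orc4 was between 36.8 and 47.8 CPM. The part of such reads in these counts was not tested.

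Fibroblast columns carry their sample titles. Early and late columns were assigned by name (the abbreviation for induced progenitors as late, that for fibroblasts with an added c as early). If that reading is wrong, early and late values change places. Symbols, positions and exon lengths came from GENCODE M21. Whether replicates are separate animals or cultures is not stated, so the p-values reflect only how these libraries varied, which may be technical.

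The counts were tested in edgeR 4.0.16 (R 4.3.3): default expression filter (16688 genes), TMM scaling, and a robust quasi-likelihood fit of 3 group means over all 6 libraries without a block (3 residual degrees of freedom). Benjamini-Hochberg adjustment ran over all genes tested, and "rose" and "fell" mean an adjusted p under 0.05. Standard errors are the absolute log2 fold change divided by the root of F. The script was tested on simulated data. Folds against 0 counts are lower bounds at 3 counts over the group, and intervals and floors cover counting error only.

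The alternatives were DESeq2 1.42.0, RLE scaling, no filter on low counts, a fit of only the 2 groups compared, a replicate block and leaving out each library. All 48 genes could be named. Full statistics were planned for called genes and, by role, the 4 with the highest mean log2 CPM and the 3 with the smallest p. Some of these genes are given only by CPM, by a range or with an adjusted p. The 9 genes outside that rule are Acvrl1, Bmp10, Bmp3, Bmp6, Gdf10, Gdf15, Gdf5, Nodal and Nog, and statistics given for them were chosen after their values were seen. Of each pathway list, the 4 genes with the smallest adjusted p and the gene with the highest CPM were named. The result of 1 gene that this rule selects is not reported here. Genes and lists were chosen with earlier results of these data known. Promoters came from RefSeq's table on GRCm38.p6, at the listed start nearest the GENCODE gene start.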

Additional observations from a re-analysis of the deposited data

How the results depend on the processing

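The calls of Bmp7, Inhba and Tgfbr1 kept their direction under every alternative run, and 16 of 44 alternative values lost the call. DESeq2 called 17, 20 and 6 of the 46 tested genes in early against fibroblast, late against fibroblast and late against early, where edgeR called 2, 2 and 0. Among other pathway genes DESeq2 called 32, 37 and 13, and among all genes 4201, 4683 and 936, where edgeR called 2, 4 and 0, and 255, 237 and 0. Without the filter on low counts 12, 13 and 1 of the 48 genes were called, with the other pathway genes at 14, 15 and 3 and all genes at 2337, 2495 and 276. With only the 2 groups compared in the fit, 8 and 4 of the 48 genes, 10 and 9 other pathway genes and 1469 and 1016 of all genes were called against fibroblasts. RLE scaling left the counts of the 48 genes and of other pathway genes as they were. The cause of these differences in number was not tested.

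The labels tie no replicate number to a shared animal, batch or day, so the numbers were not taken to pair libraries. Libraries with the same replicate number had deviations that correlated at 0.121, 0.238 and 0.0859 for the 3 pairs of groups. With 2 libraries a group, these correlations cannot exclude a pairing. With a replicate block, 1 and 0 of the 48 genes, 0 and 0 other pathway genes and 26 and 9 of all genes were called in early and late cells against fibroblasts. The adjusted p under the block (edgeR) was 0.0753 for Tgfbr1 in early cells, and 0.0663 for Bmp7 and 0.0724 for Inhba in late cells. The block gave log2 fold changes of -0.21 for Eng (late against fibroblast) and 0.13 for Ltbp4 (late against early), the reverse of the reported sign. With only the 2 groups compared, those of Id3 (early against fibroblast) and Ltbp4 (late against early) were 0.013 and 0.0074, also reversed.

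Leaving out each library in turn gave 0 to 4, 0 to 6 and 0 to 3 of the 48 genes called in the 3 comparisons, 0 to 9, 0 to 9 and 0 to 4 other pathway genes, and 0 to 823, 0 to 1058 and 0 to 602 of all genes. None of the 48 was called against fibroblasts without either fibroblast library, without early replicate 1 in early cells and without late replicate 2 in late cells, while calls between late and early cells came only without late replicate 1. A group cut to 1 library is taken to vary like the others. Genes that were not called and whose log2 fold change turned sign ran over the following ranges. For early cells against fibroblasts, it ran from -0.74 to 0.72 for Tgfb1, -0.66 to 1.15 for Tgfb2, -0.40 to 2.08 for Gdf6, -0.42 to 0.027 for Acvr1, -0.78 to 0.021 for Bmpr2, -1.02 to 2.23 for Eng, -0.18 to 1.06 for Ltbp3, -0.11 to 0.56 for Grem1, -0.10 to 1.25 for Chrd, -0.33 to 0.26 for Id3 and -0.17 to 1.02 for Id1. For late cells against fibroblasts, it ran from -0.50 to 1.14 for Gdf6, -0.22 to 0.0061 for Bmp5, -0.10 to 0.10 for Bmpr1a, -0.51 to 0.17 for Tgfbr2, -0.69 to 0.61 for Eng, -0.65 to 0.18 for Grem1, -0.27 to 0.33 for Bambi and -0.83 to 0.37 for Id2. For late against early cells, it ran from -0.32 to 1.14 for Tgfb1, -1.68 to 0.64 for Gdf6, -2.32 to 1.18 for Inhbb, -0.11 to 0.88 for Inha, -0.78 to 0.015 for Bmpr2, -2.12 to 1.14 for Eng, -0.73 to 1.25 for Ltbp4, -0.24 to 0.37 for Smad7, -0.66 to 0.43 for Smad6, -0.79 to 0.40 for Id1 and -1.02 to 0.97 for Id4. 

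With 2 libraries a group, a gene without a call is not shown to be the same in 2 groups. The floor of 3 counts was highest in early replicate 2, at 0.142 CPM. Below it Nodal cannot be ordered, nor can Bmp10 outside late replicate 2. The same holds for Bmp3, Bmp5, Gdf5 and Chrdl1 in the group where they are at or near 0.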
